A study of Mus musculus with 18 samples.

Results

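NT.2 and NT.1 are epiblast stem cell (EpiSC) lines, each derived from the epiblast of a mouse embryo made by somatic cell nuclear transfer. They were compared here array by array to describe how far lines of 1 such origin and of normally shaped embryos can differ. The arrays were chosen by their titles, 3 for NT.2 and 3 for NT.1, so that 6 of the 18 arrays of the series entered the comparison. The other 12 arrays came from NT-LE, a nuclear transfer line, and from 3 lines from fertilized embryos, FT.1 to FT.3, whose values are given in that order (3 arrays each). The mean of the 3 FT lines served as the outside level against which NT.2 or NT.1 was said to depart.

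All 6 lines were of the B6D2 strain, came from embryos at the pre-streak or early streak stage and were given no treatment. The embryo was of normal morphology for NT.2, NT.1 and the FT lines, whereas that of NT-LE had a large extra-embryonic ectoderm. All lines were grown on dishes coated with FBS in defined medium containing activin A and bFGF. Each line was represented by 3 biological repeats, 1 array each. The p-values below therefore rest on the spread between repeats within a line, pooled over the 6 lines. A difference between the lines cannot be told apart from a difference between the embryos or the cultures.

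EpiSCs are pluripotent cells of the post-implantation epiblast, held in a primed state by activin and FGF signals. Nuclear transfer puts a somatic nucleus into an egg whose own nucleus was removed, and its chromatin marks are carried into or reset in the embryo. Imprinted genes are transcribed from the maternal or the paternal copy only, according to DNA methylation set in the germ line, and they are a known weak point of cloned mouse embryos and of cultured pluripotent cells. Among paternally expressed genes, Snurf and Snrpn share a transcript in a cluster with Ndn and Mkrn3, Mest encodes a hydrolase-like protein, Peg3 a zinc finger protein and Impact a regulator of the kinase Gcn2.

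The start regions of the genes with the largest falls are shown because imprinting is set by methylation of CG dinucleotides and these genes had the largest falls among named genes, with Impact left out. They hold 300 bases around the annotated start, most of them upstream, 5′ to 3′ on the gene's strand, from RefSeq on GRCm38.p6, with each CG dinucleotide in capitals. Mest has 3 starts in the table, and the region given is 1 of them. The coordinates are chr7:60005150-60005449 (minus strand) for Snurf, chr7:62348027-62348326 (plus strand) for Ndn, chr6:30737800-30738099 (plus strand) for Mest and chr7:6730370-6730669 (minus strand) for Peg3.
Snurf: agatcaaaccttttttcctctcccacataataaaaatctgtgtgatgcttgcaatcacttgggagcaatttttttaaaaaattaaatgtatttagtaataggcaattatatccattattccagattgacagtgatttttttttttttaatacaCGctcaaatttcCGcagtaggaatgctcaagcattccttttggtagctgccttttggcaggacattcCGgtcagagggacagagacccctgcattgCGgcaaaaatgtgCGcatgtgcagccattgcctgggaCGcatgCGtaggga
Ndn: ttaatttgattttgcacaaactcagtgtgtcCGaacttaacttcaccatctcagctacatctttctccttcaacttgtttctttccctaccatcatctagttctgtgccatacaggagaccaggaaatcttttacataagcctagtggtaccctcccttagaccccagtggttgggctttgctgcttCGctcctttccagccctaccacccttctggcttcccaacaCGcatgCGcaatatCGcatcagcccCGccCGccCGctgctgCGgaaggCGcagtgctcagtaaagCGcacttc
Mest: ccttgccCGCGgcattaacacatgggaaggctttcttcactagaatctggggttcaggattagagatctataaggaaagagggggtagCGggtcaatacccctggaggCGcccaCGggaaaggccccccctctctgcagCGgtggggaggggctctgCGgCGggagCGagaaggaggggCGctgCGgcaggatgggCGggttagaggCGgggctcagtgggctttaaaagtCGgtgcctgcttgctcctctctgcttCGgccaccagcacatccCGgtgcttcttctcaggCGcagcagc
Peg3: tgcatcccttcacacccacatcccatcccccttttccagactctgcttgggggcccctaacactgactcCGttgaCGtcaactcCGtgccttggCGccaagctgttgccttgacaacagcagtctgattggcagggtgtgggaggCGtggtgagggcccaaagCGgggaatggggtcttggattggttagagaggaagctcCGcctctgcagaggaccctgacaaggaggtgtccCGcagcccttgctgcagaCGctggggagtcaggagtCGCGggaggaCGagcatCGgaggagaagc
Mest held 17 CG dinucleotides, Peg3 13, Ndn 11 and Snurf 7, whereas the median over 32851 such regions was 7, and 43.5% of them held 10 or more. The hexamer TGCCGC, bound by ZFP57 when methylated, was searched on both strands. It occurred 2 times in the Mest region, 1 time in the Snurf region and 0 times in those of Ndn and Peg3, and 11.6% of all regions held it. These counts describe sequence only, since DNA methylation was not measured on these arrays.

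Intensities were compared on the log2 scale after quantile normalization. Background was set on each array at 3 spreads over the mode of its log2 values. The 17908 of 45281 probes that exceeded it in all 3 repeats of some line were tested. The mean intensity was 953, 877 and 773 on the NT.2 arrays, 972, 785 and 682 on the NT.1 arrays, and 636 to 1142 over all 18. Each of the 6 NT.2 and NT.1 arrays lay nearest to an array of its own line. The 3 FT.3 arrays and NT-LE replicate 2 lay nearest to arrays of other lines, so values without some of these arrays are given where they matter. The pluripotency gene Pou5f1 was at 14.23 in NT.2 and 14.03 in NT.1, and by its other probe at 13.71 in NT.2 and 13.52 in NT.1. Dnmt3b, Fgf5 and Otx2, genes of the primed epiblast, were at 15.30, 12.67 and 13.38 in NT.2 and at 15.24, 12.70 and 13.27 in NT.1, and none of these differences passed the test.

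NT.2 and NT.1 differed at 1408 probes, 7.86% of those tested (limma, Benjamini-Hochberg adjusted p under 0.05). Of these, 585 were higher in NT.2 (3.27%) and 823 were lower in NT.2 (4.60%), in 447 and 619 genes. The arrays of the lines did not overlap at 1392 of the 1408 probes, which largely follows from how probes are called. The share without overlap over all tested probes was not counted. Most differences were small. The median called difference was 0.42 for probes higher in NT.2 and -0.53 for probes lower in NT.2, with a median SE of 0.10 over tested probes. The larger differences ran mostly downward in NT.2, since 148 probes (0.826%) were called and at least 2-fold apart, 23 higher and 125 lower in NT.2, and 41 were at least 4-fold apart, 5 higher and 36 lower. The direction of the small differences depended on the scaling. With median scaling 1174 probes were called, 689 higher and 485 lower in NT.2, and the median over all tested probes was 0.08, against 0.02 with quantile normalization. Without NT.2 replicate 2 the count fell to 852, with 323 higher and 529 lower. Without FT.3 replicate 1, NT-LE replicate 2 and NT.1 replicate 2 it was 1918, with 891 higher and 1027 lower in NT.2.

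Lines from fertilized embryos differed among themselves too. By the same fit 359 probes (2.00%) differed between FT.2 and FT.1, 1098 (6.13%) between FT.3 and FT.1 and 381 (2.13%) between FT.3 and FT.2, and an F-test over the 3 lines called 1077 (6.01%). Differences called and at least 2-fold numbered 148 between NT.2 and NT.1, against 64, 66 and 44 for these FT pairs. The root mean square difference over all tested probes was 0.297 between NT.2 and NT.1, and 0.190, 0.267 and 0.228 for the FT pairs. These pairs share lines and 1 estimate of the spread, and whether lines from nuclear transfer vary more than lines from fertilized embryos was not tested. The FT lines also differed in sex markers. The X-linked RNA Xist was at 6.49, 6.49 and 10.95 by its brightest probe, and the Y-linked gene Eif2s3y at 10.67, 10.38 and 6.62. The FT mean and the pairs with FT.3 mix these states, whereas NT.2 and NT.1 were both high in Xist and at background in Eif2s3y. Of the 1408 probes, 262 (18.6%) were also called among the FT lines, and these made 24.3% of the FT calls.

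Imprinted genes held the 5 largest falls among named genes, each in a gene not above background on any NT.2 array, called off below. The log2 intensity of Snurf was 6.40, 6.43 and 6.34 in NT.2 and 14.32, 14.43 and 14.32 in NT.1. All NT.2 arrays were at background and all NT.1 arrays were high, with no overlap. The difference was -7.97 (SE 0.07, limma adjusted p = 8.57e-21), and since the NT.2 arrays gave no signal above background Snurf was at least 138-fold lower in NT.2. A bound of this kind sets the mean of the bright line against the lowest signal counted as above background on the dim line's arrays. The other Snurf probes differed by -6.72 and -4.25, at least 80.5-fold and 13.7-fold lower in NT.2. The FT means were 14.32, 14.15 and 14.21, so that NT.1 lay at the FT level.

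Ndn, which encodes necdin, a MAGE family protein, lies in the same cluster on chromosome 7. It was at 6.74, 6.97 and 6.85 in NT.2 and at 11.74, 12.05 and 12.00 in NT.1, a difference of -5.08 (SE 0.11, limma adjusted p = 1.29e-15). It was therefore off in NT.2 and at least 25.7-fold lower there. Mkrn3, a ubiquitin ligase gene of the cluster that was named after its values were seen, was at 6.70 ± 0.13 in NT.2 and 9.06 ± 0.21 in NT.1 (SD, n = 3 arrays each), at least 3.50-fold lower. Snurf, Ndn and Mkrn3 were thus all lower in NT.2, whereas Gm7367, which lies between Snurf and Ndn, differed by -0.10 and was not called. The FT lines averaged 9.24 for Mkrn3 and 12.14 for Ndn.

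Mest on chromosome 6 was at 6.48, 6.36 and 6.66 in NT.2 and at 12.28, 12.56 and 12.42 in NT.1. No array of NT.2 was above background, and Mest was at least 36.1-fold lower there (difference -5.93, SE 0.13, limma adjusted p = 2.15e-15). Its other probes differed by -5.34 and -4.00. Peg3, outside the Snurf cluster on chromosome 7, was at 6.93, 6.84 and 6.67 in NT.2 and at 12.45, 12.20 and 12.64 in NT.1. It too was off in NT.2, at least 36.1-fold lower (difference -5.61, SE 0.11, limma adjusted p = 6.28e-16). Its other probes differed by -3.51 and, near background in both lines, by -0.49.

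Impact, on chromosome 18, was at 6.90, 6.77 and 6.99 in NT.2 and at 12.05, 11.73 and 11.76 in NT.1. It was at least 24.2-fold lower in NT.2 (difference -4.96, SE 0.10, limma adjusted p = 8.12e-16), and a dimmer probe differed by -0.90. Impact also varied among the FT lines, at 10.08, 12.56 and 12.15. Peg10, which derives from a retrotransposon, was dimmer, at 7.02 ± 0.12 in NT.2 and 8.15 ± 0.14 in NT.1 (SD, n = 3 arrays each), at least 1.86-fold lower in NT.2. At all of these genes NT.2 was the departing line.

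**Figure D1:**
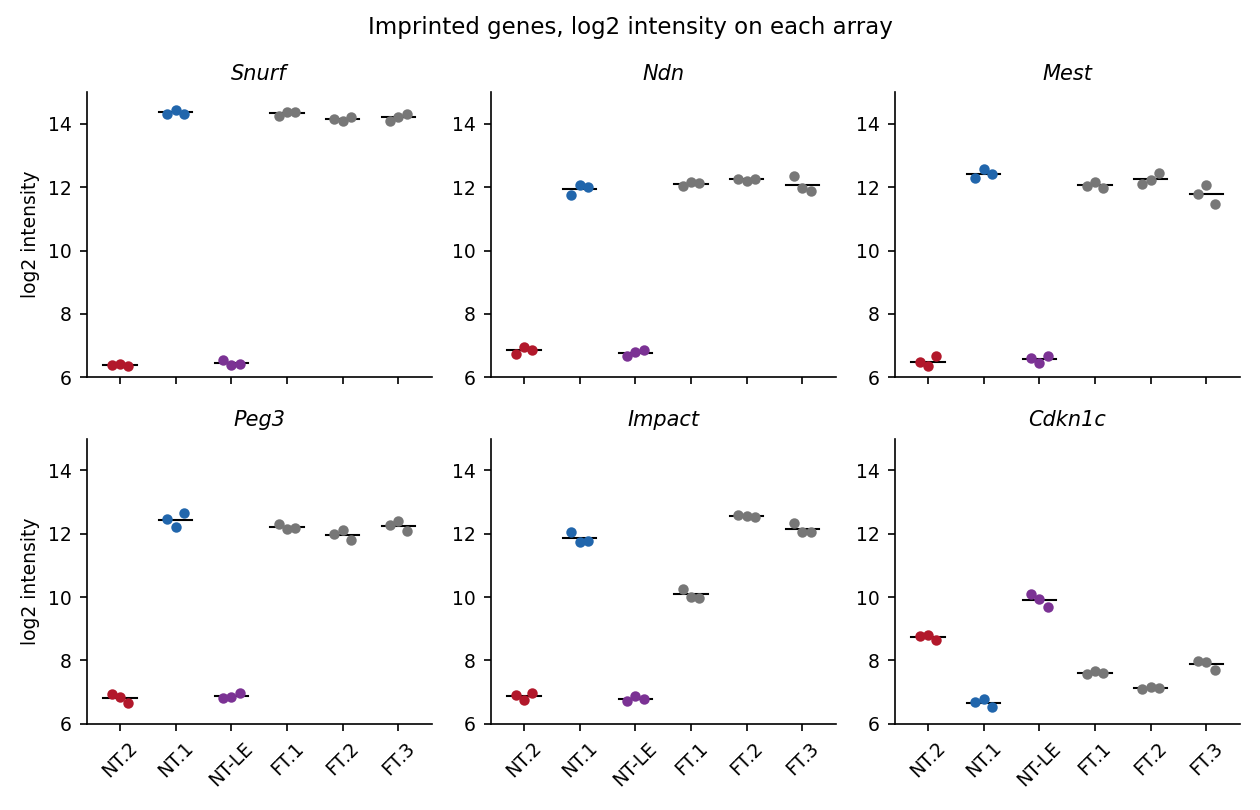
Log2 intensity of 6 imprinted genes on each of the 18 arrays (points) with the mean of each line (bar), on a shared axis. Snurf, Ndn, Mest, Peg3 and Impact are near background on all NT.2 and NT-LE arrays and high in NT.1 and the FT lines, whereas Cdkn1c is lowest in NT.1.

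The same genes were off in NT-LE. Its means were 6.45 for Snurf, 6.78 for Ndn, 6.71 for Mkrn3, 6.57 for Mest, 6.87 for Peg3, 6.80 for Impact and 7.01 for Peg10, each above background on 0 of 3 arrays. NT.1 was thus the 1 nuclear transfer line of the 3 in which these genes were on. Zdbf2, a paternally expressed gene named after its values were seen, was off in both lines compared, at 6.94 in NT.2 and 6.97 in NT.1, and at 7.48 in NT-LE, against 9.98, 10.30 and 10.24 in the FT lines.

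Not every paternally expressed gene was lower in NT.2. The list held 19 members, 9 of them tested, and 1 was called higher and 6 were called lower in NT.2, with a median difference of -1.12. Over all 10038 genes 4.37% were higher and 6.11% lower by the probe with the smallest p, with a median of 0.02. The 6 lower genes were Peg3, Mest, Ndn, Impact, Peg10 and Inpp5f, an inositol phosphatase gene at 9.91 ± 0.11 in NT.2 and 10.73 ± 0.31 in NT.1 (SD, n = 3 arrays each), whose other probe differed by 0.03. The higher gene was Dlk1, a Notch-like membrane protein gene, by 0.69 and 0.80 on its probes, where FT.1 was near NT.2 and FT.2 near NT.1. Igf2, the fetal growth factor, differed by 0.18 and Rtl1 by 0.35, and neither passed. Snrpn, Magel2, Plagl1, Nnat, Sgce, Usp29, Zim1, Kcnq1ot1, Airn and Nap1l5 were not tested, because no probe named for them was above background on all 3 arrays of a line or no probe was listed. A gene that is on in 1 line only passes this filter through that line, so the count is a description of the tested genes. When only probes above background on all 18 arrays were tested, 1 gene of the list was called lower.

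Of 13 maternally expressed members 10 were tested, and limma called 4 higher and 0 lower in NT.2, with a median of -0.09. At an unadjusted p under 0.05 there were 4 higher and 1 lower. Cdkn1c, which encodes a cyclin-dependent kinase inhibitor that restrains growth, was at 8.77, 8.80 and 8.63 in NT.2 and at 6.69, 6.77 and 6.53 in NT.1. It was off in NT.1, at least 2.83-fold higher in NT.2 (difference 2.07, SE 0.10, limma adjusted p = 2.53e-10), higher still in NT-LE at 9.91, and between NT.2 and NT.1 in the FT lines, at 7.62, 7.13 and 7.87. The departing line was not settled for it. Phlda2, its neighbour and a placental growth gene, was higher by 0.70, the receptor adaptor Grb10 by 0.48 and the noncoding RNA Meg3 by 0.42. Igf2r, Rian, Tssc4, Cd81, Ascl2 and Slc22a18 did not pass, and H19, Mirg and Kcnq1 were not tested.

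Of the 3 nearest tested genes on each side of Snurf, Ndn, Mkrn3, Mest, Peg3 and Impact, in the gene order of GRCm38.p6, 25 were distinct and outside this set. limma called 0 of these 25, of which 3 had an unadjusted p under 0.05, where 4.37% of all genes were called higher and 6.11% lower. Their differences ran from -0.24 (Cep41) to 0.41 (Klf13) with a median of -0.04. Gm7367, between Snurf and Ndn in this order, differed by -0.10, and Ube3a, a ubiquitin ligase gene transcribed from both copies in most tissues and next to Snurf on the other side, differed by -0.08. Copg2, beside Mest, differed by 0.29 and Osbpl1a, beside Impact, by -0.07.

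Which line departed from the FT level could be settled where the midpoint of NT.2 and NT.1 also differed from the FT mean, which it did at 2918 probes (16.3%). Both contrasts were called at 673 probes (3.76%). With equal signs NT.2 lies farther out, and with opposite signs NT.1 does. NT.2 departed at 556 probes, 207 higher and 349 lower, and NT.1 at 117, 69 higher and 48 lower than NT.2, while 735 were not settled. Among the 148 probes at least 2-fold apart NT.2 departed at 103, of which 94 were lower in NT.2, NT.1 departed at 20 and 25 were not settled. NT.2 lay farther from the FT mean at 74.2% of the called probes and at 58.5% of all tested. By the range of the 9 FT arrays, NT.2 was outside and NT.1 inside at 777 called probes, and the reverse held at 219. At 168 both lay inside the FT range, and at 244 both lay outside, 153 of these on opposite sides. The counts depended on the outside line. With FT.3 alone, the FT line that shares with NT.2 and NT.1 a high level of Xist, they were 351 for NT.2 and 66 for NT.1. With NT-LE they were 324 and 200. Both counts were thus lower with FT.3 alone, and the balance moved toward NT.1 only with NT-LE.

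**Figure D2:**
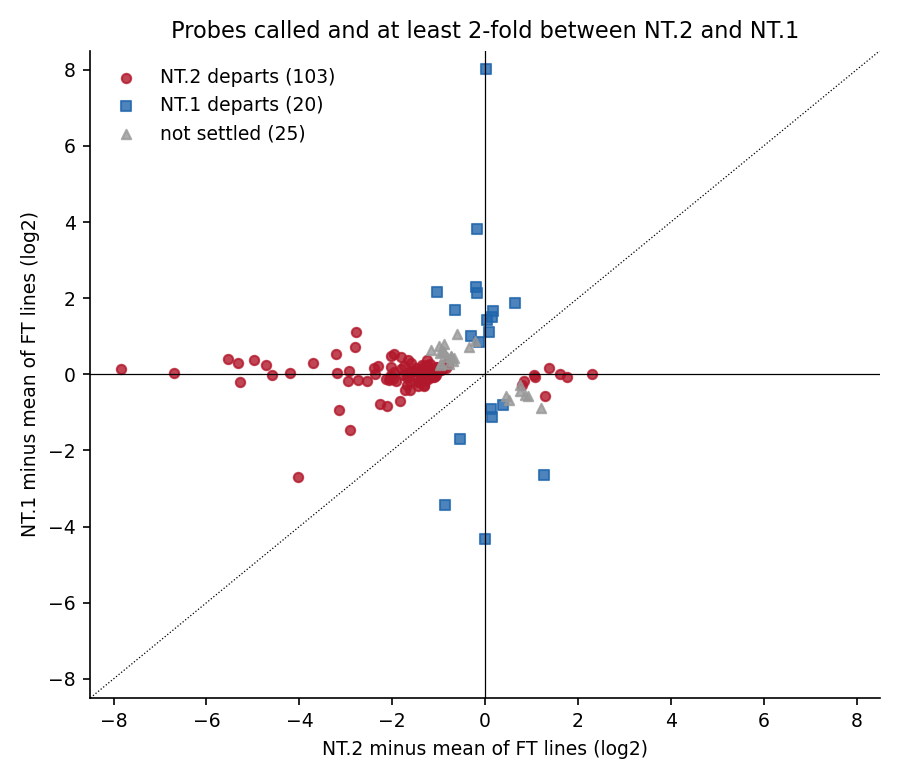
Each of the 148 probes called and at least 2-fold apart, by its log2 difference from the FT mean in NT.2 (horizontal) and NT.1 (vertical), with symbols for the departing line. Points along the horizontal axis are probes at which NT.1 lies at the FT level, and most of these are below 0 in NT.2.

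The position of each array between the lines was computed over the called probes, with the NT.1 mean at 0 and the NT.2 mean at 1. The FT lines lay nearer to NT.1, at 0.264, 0.244 and 0.227, and NT-LE lay midway, at 0.541. Without the imprinted genes NT-LE moved to 0.369 and the FT lines to 0.340, 0.330 and 0.292, and over called probes under 2-fold NT-LE was at 0.316. The probes were chosen for their difference between NT.2 and NT.1, so the ends are fixed by that choice and only the other 4 lines are informative.

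**Figure D3:**
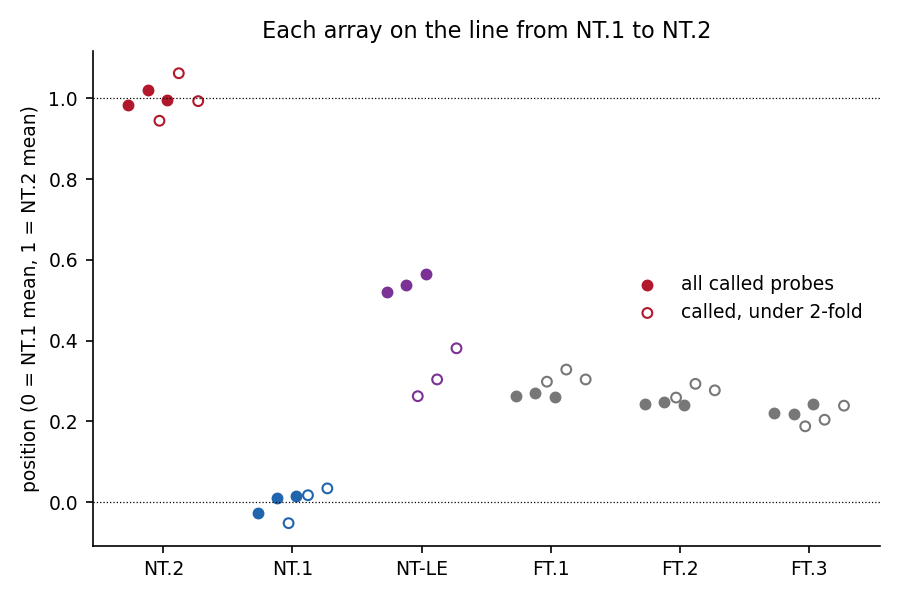
Position of each of the 18 arrays on the line from the NT.1 mean (0) to the NT.2 mean (1), over all called probes (filled) and over called probes under 2-fold (open). The FT lines lie nearer to NT.1 in both, and NT-LE lies near 0.541 over all called probes and near 0.316 over the smaller differences.

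The largest rises in NT.2 outside imprinting were in part in genes that were low in NT.1. Bag3, a co-chaperone of Hsp70, was at 12.55, 12.41 and 12.39 in NT.2 and at 8.76, 7.89 and 7.75 in NT.1. NT.1 was low on all 3 arrays, while NT-LE at 12.43 and the FT lines at 12.62, 11.99 and 12.73 were near NT.2, so that NT.1 departed (difference 4.32, SE 0.17, 20.0-fold, limma adjusted p = 9.58e-12). Cyba, a subunit of the NADPH oxidase, was at 10.71, 10.94 and 10.63 in NT.2 and at 6.52, 6.95 and 7.07 in NT.1. It was off in NT.1, at least 11.5-fold higher in NT.2 (difference 3.91, SE 0.14, limma adjusted p = 2.64e-12), and ran from 8.29 in FT.1 to 10.22 in FT.3.

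Akr1b10, an aldo-keto reductase, was at 10.43, 10.60 and 10.53 in NT.2 and at 8.11, 7.97 and 7.78 in NT.1, 5.91-fold higher in NT.2, with an FT mean of 11.39. Its other probe rose by 1.17. NT.1 departed also at 9130019O22Rik, higher in NT.2 by 1.26, and at Prxl2a, a peroxiredoxin-like gene higher in NT.2 by 1.19 on 1 probe and 1.21 on another, although FT.2 and FT.3 were at 10.01 and 10.13, near NT.1 at 9.84, and FT.1 at 11.78, near NT.2 at 11.02, on the first of these probes. A departure from the FT mean is then not a departure from each FT line.

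NT.2 departed upward at 9 of the probes at least 2-fold apart. Chac1, an enzyme that degrades glutathione, was at 12.64 ± 0.13 in NT.2 and at 10.81 ± 0.23 in NT.1 (SD, n = 3 arrays each). The arrays did not overlap (difference 1.84, SE 0.22, 3.57-fold, limma adjusted p = 3.12e-05), and the FT lines were at 10.35, 11.14 and 11.16. Aldh1l2, a mitochondrial folate enzyme, was higher by 1.14, at least 2.00-fold. The bicarbonate transporter gene Slc4a4 was higher by 1.21 on 1 probe, while another differed by 0.08. A probe of Tomm6, a small subunit of the mitochondrial import pore, rose by 2.28, whereas the other, brighter Tomm6 probe fell by 0.47 (limma adjusted p = 0.00591), so the gene has no single direction. 1700048O20Rik, a noncoding RNA, was higher by 1.86, at least 3.05-fold, but was also on in NT-LE at 8.82 and in FT.2 at 8.54. For Gal, the neuropeptide galanin, higher by 1.40, and for Fam184a, higher by 1.49 with another probe at -0.18, the departing line was not settled.

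The falls outside imprinting included genes that were off in NT.2. Slpi, a secreted protease inhibitor of epithelia, was at 6.57, 6.65 and 6.63 in NT.2 and at 10.82, 10.28 and 10.44 in NT.1. It was above background on 0 of 3 NT.2 arrays, at least 9.60-fold lower there (difference -3.90, SE 0.14, limma adjusted p = 1.35e-12), and on in NT-LE at 10.67 and in the FT lines at 9.50, 9.38 and 9.33. Polr1b, the second largest subunit of RNA polymerase I, lay between 6.91 and 7.20 on the 3 NT.2 arrays and at 10.18, 10.39 and 10.26 in NT.1. This was at least 8.13-fold lower in NT.2, with all other lines near NT.1. Polr1a, the largest subunit of the same enzyme, named after its values were seen, fell by 2.54 and by 1.07 on its called probes among 4 tested.

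For 2 further genes the fall rested on 1 probe. Adamts9, a secreted metalloproteinase, fell by 3.73 on 1 probe and differed by -0.02 on the other. Tomm22, a receptor of the mitochondrial import pore, fell by 3.02 on 1 probe, and the other differed by 0.11. Of 53 genes at least 2-fold apart with several tested probes, 22 were called in the same direction by all their probes, and for 26 no other probe was called in that direction.

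NT.1 departed upward at 13 of the probes at least 2-fold apart. Gstm5, a glutathione S-transferase, was at 7.42, 7.27 and 7.15 in NT.2 and at 11.28, 11.31 and 11.23 in NT.1. It was above background on 1 of 3 NT.2 arrays and lower in NT.2 (difference -3.99, SE 0.08, limma adjusted p = 7.92e-16), and the FT lines were near NT.2 at 7.44, 7.80 and 7.13, but NT-LE was near NT.1 at 11.06. Tsr3, which modifies ribosomal RNA, was at 7.51, 7.69 and 7.78 in NT.2 and at 10.04, 10.13 and 10.34 in NT.1. NT.1 stood above all 5 other lines on 2 of 3 Tsr3 probes, with differences of -2.51 and -2.32, while the last probe differed by 0.27.

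Sdr39u1, a short-chain dehydrogenase, was off in every line but NT.1, at 6.67 in NT.2 and 8.01 in NT.1. In NT.2 the G protein gene Gng13 fell by 1.31. Acta1, the actin of skeletal muscle, fell by 1.21, with NT.1 arrays at 10.003, 9.22 and 8.46. The NT.1 arrays were far apart, and of the 27 probes named for the size of their difference Acta1 was the 1 that did not pass a test against a 1.5-fold minimum (limma treat, adjusted p = 1.0).

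**Figure D4:**
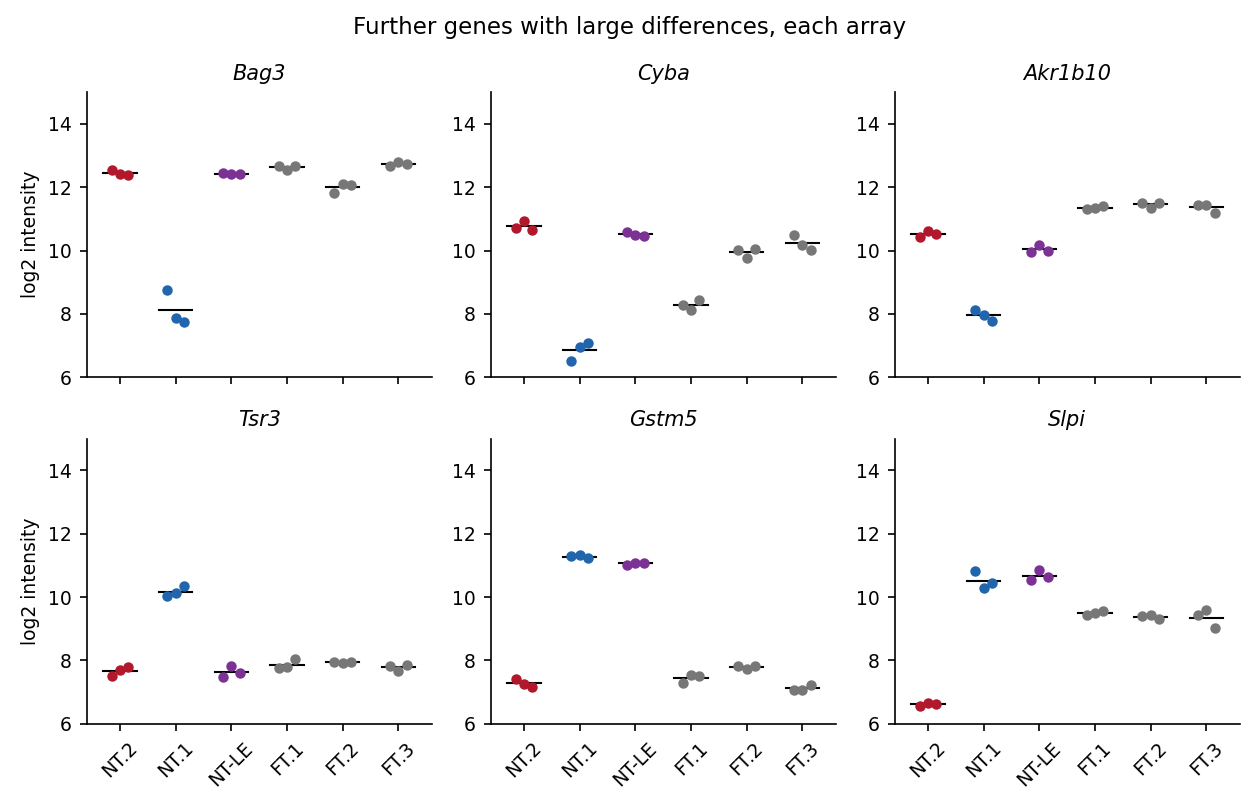
Log2 intensity of 6 further named genes on each of the 18 arrays (points) with the mean of each line (bar). Bag3, Cyba and Akr1b10 are lowest in NT.1, Tsr3 and Gstm5 are high in NT.1, and Slpi is near background in NT.2 only.

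Several genes of epithelia were lower in NT.2. They were grouped after their values were seen, so they support no statement on epithelial genes as a whole. Krt18, a keratin of simple epithelia, was at 10.88, 10.55 and 10.32 in NT.2 and at 12.86, 12.64 and 12.38 in NT.1. Every NT.2 array was below every NT.1 array (difference -2.04, SE 0.13, 4.12-fold, limma adjusted p = 9.71e-09), and NT-LE and the FT lines were near NT.1. Its partner Krt8 fell by 1.04, Krt7 by 0.48 and Krt19, which lies on chromosome 11, by 1.45. The tight junction genes Cldn4, Cldn3 and Cldn6 fell by 1.81, 1.09 and 0.67. St14, a membrane protease of epithelia, was at 6.91, 6.95 and 6.89 in NT.2 and at 9.45, 9.05 and 8.88 in NT.1, at least 3.67-fold lower in NT.2, and its other probe fell by 1.27. Sfn, a 14-3-3 protein of epithelia, fell by 1.47. NT.1 lay below the FT lines for Krt19 and St14, at 8.60 and 9.13 against an FT mean of 10.06 for each, so the values of both lines were below the FT mean there.

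Counts of the gene lists stand beside 4.37% of all genes called higher and 6.11% called lower in NT.2. Of the 12 tested genes of the pluripotency core, limma called 0 higher and 1 lower, with a median of 0.09 and 1 in each direction at an unadjusted p under 0.05. The lower one was Sall4, a zinc finger factor, which fell by 1.97 on 1 probe, whereas its other probes differed by -0.86 and -0.03, neither past the threshold. Of 13 genes of the primed epiblast 0 were higher and 5 lower, namely Krt18, Cldn6, Lefty2 (-1.03), Lefty1 (-0.79) and Nodal (-0.44). Lefty1 and Lefty2 are inhibitors and targets of Nodal. Among 14 genes of Nodal, activin and FGF signalling these 3 were the ones called, with a median of 0.01. Of 9 genes of the naive state 3 were lower, Klf5 (-0.68), Esrrb (-0.63) and Fbxo15 (-0.42).

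Markers of other cell types were read against the same shares of all genes, 4.37% higher and 6.11% lower. Of 10 genes of the primitive streak and mesoderm 0 were higher and 1 was lower, Pdgfra (-0.56), with 0 higher and 4 lower at an unadjusted p under 0.05 by limma, and of 10 of definitive endoderm limma called 0 (1 higher and 2 lower at an unadjusted p under 0.05), with Gata6 at -0.37 and Sox17 at -0.40 and -0.20. Of 10 genes of visceral endoderm 2 were higher, Amn (0.50) and Sparc (0.42, with its other probes at -0.50 and -0.47), and 1 was lower, Dkk1 (-0.59). Of 10 trophoblast genes limma called 0 higher and 3 lower, Krt8, Esrrb and Krt7, which the epithelial and naive groups also hold, with 0 higher and 6 lower at an unadjusted p under 0.05. Of 7 neural genes Nes was lower (-0.48 and -0.51), of 3 germ line genes Ifitm3 (-0.79) and Ifitm1 (-0.69) were lower, and of 7 fibroblast genes limma called 0 (3 lower at an unadjusted p under 0.05). Both lines were high in Xist, at 11.17 in NT.2 and 10.99 in NT.1 by its brightest probe, and at background in Eif2s3y, a gene of the Y chromosome, at 6.52 in NT.2 and 6.54 in NT.1. In these bulk samples fewer cells of a type and less RNA per cell cannot be told apart. The part of any such cells in the differences was not tested.

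Of 13 tested genes of the stress response and p53 targets, 2 were called higher in NT.2 and 5 lower, with a median of 0.03, where 4.37% of all genes were higher and 6.11% lower. Over 21 alternatives the lower count ran from 0, against a 1.5-fold minimum, to 6 and moved in 7 of them, and the higher count ran from 0 to 2. The higher ones, Trib3 and Ddit3, belong to the response to amino acid and endoplasmic reticulum stress, and 4 of the lower ones are targets of p53. Trib3, a pseudokinase induced by Atf4, was at 11.19, 11.55 and 11.45 in NT.2 and at 10.29, 10.34 and 10.36 in NT.1. All NT.2 arrays were above all NT.1 arrays (difference 1.07, SE 0.16, limma adjusted p = 0.000196), and the other Trib3 probes rose by 1.00 and 0.67. Ddit3, a transcription factor of the same response, rose by 0.79 and 0.66. Other genes known from it were named after their values were seen. Herpud1 rose by 0.83 and 0.95, Asns by 0.59 and 0.58, Mthfd2 by 0.66 and 0.61, Psat1 by 0.50, Shmt2 by 0.41, Slc6a9 by 0.85 and Cebpb by 0.48, as did Chac1 and Aldh1l2. Another Asns probe, at 0.98, and another Shmt2 probe, at 0.41, did not pass. Phgdh differed by 0.63 and Sesn2 by -0.21 and -0.15, without passing.

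Atf4, the fifth lower gene and a factor known to drive this response, fell by 1.55 on 1 probe, while a brighter one at 0.20 did not pass. Chac1 was also uneven in NT-LE, at 11.03, 12.18 and 12.15. The p53 targets Ccng1, Mdm2, Trp53inp1 and Cdkn1a were lower in NT.2. Ccng1 fell by 0.60, 0.44 and 0.34 on its 3 probes, Mdm2 by 0.40, Trp53inp1 by 0.45 on both probes and Cdkn1a by 0.58. Ccng1 lies on chromosome 11, whose probes were lower in NT.2 as a whole. Of 10 genes of hypoxia and glycolysis 3 were higher, Pfkl (0.43), Vegfa (0.34) and Aldoa (0.33), of 12 cell cycle genes 1 was lower, the inhibitor Cdkn2a (-0.85), and of 9 DNA methylation and chromatin genes limma called 0 (1 lower at an unadjusted p under 0.05).

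Antigen presentation genes of the major histocompatibility complex, also named after their values were seen, gave mixed probes. In NT.2 H2-K1 fell by 1.75 on 1 probe and differed by -0.10 on another. H2-Q6 fell by 1.84 on 1 probe and fell by 1.30 on the other. H2-D1 fell by 2.02 on 1 probe, and was higher by 0.72 on another and at 0.29 on the last. These genes are near-identical in sequence, so values of single members are uncertain.

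Chromosome 11 stood apart in a small shift of many genes. It was singled out after the values were seen, so no test is given. Its 1372 tested probes had a median difference of -0.09 and 72.5% of them were below 0, whereas the medians of the other chromosomes ran from 0.02 to 0.06. Of its probes 15 were called higher (1.09%) and 112 lower (8.16%) in NT.2, against 3.27% and 4.60% of all tested probes. On the other chromosomes the share higher ran from 1.88% (chromosome X) to 5.21% (chromosome 12). The share lower ran there from 2.30% (chromosome X) to 7.18% (chromosome 14). In 4 stretches of 343 probes each along the chromosome the median was -0.12, -0.10, -0.07 and -0.08. Against the FT mean, the chromosome median was -0.20, -0.21 and -0.20 on the NT.2 arrays and -0.19, -0.07 and -0.08 on the NT.1 arrays.

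NT.1 replicate 1 was thus near the NT.2 arrays, while the other NT.1 arrays lay nearer to 0. The difference was -0.13 without that array. NT-LE was lower than both, at -0.27, -0.23 and -0.27, while FT.1 and FT.2 were at 0.03 to 0.04 and FT.3 at -0.01, -0.03 and -0.10. With median scaling the chromosome's median was -0.02, where all tested probes had a median of 0.08. Probes with a mean log2 over 10 had a median of -0.12, against 0.03 for the 4443 as bright on other chromosomes. Of the 861 tested genes of chromosome 11, 8 (0.929%) were at least 2-fold lower, near the 0.897% of all tested genes. Among these 8 were Hba-a1 (-1.95), Krt19 (-1.45), Igfbp3 (-1.33) and Irgm1 (-1.23). The other probe of Igfbp3 at -1.02 was not called (limma adjusted p = 0.239), nor was a brighter probe of Irgm1 at -0.20 (limma adjusted p = 0.470). Without the probes of chromosome 11 the comparison still called 1238 probes, 510 higher and 728 lower in NT.2, and 139 at least 2-fold. Chromosome number was not measured here.

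**Figure D5:**
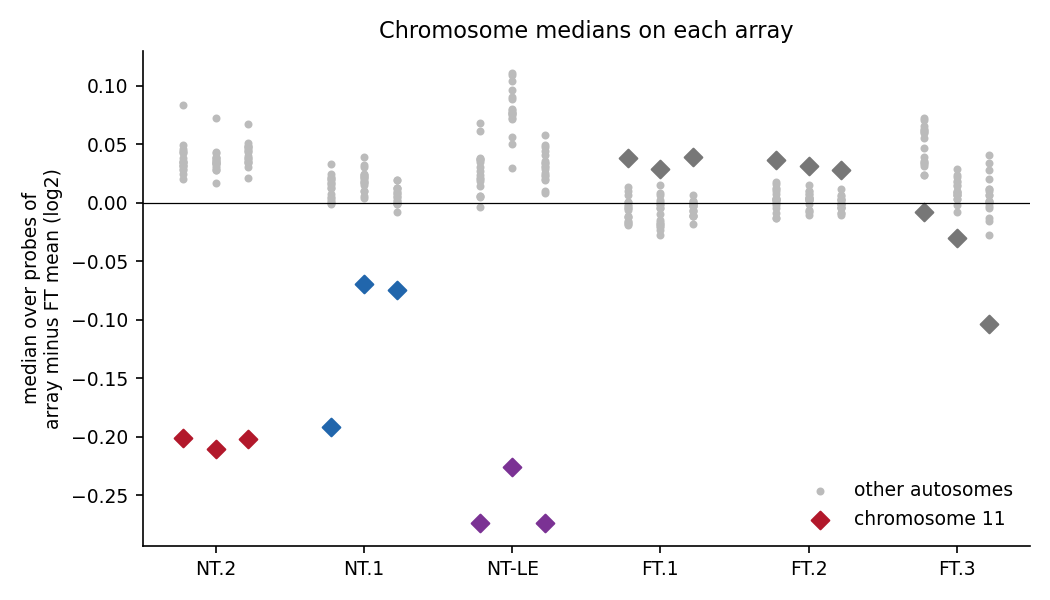
Median over tested probes of each array's log2 difference from the FT mean, for chromosome 11 (diamonds) and each other autosome (grey points), with 3 arrays for each line. Chromosome 11 lies below the other autosomes on the NT.2, NT.1, NT-LE and FT.3 arrays, lowest in NT-LE, and above them on the FT.1 and FT.2 arrays.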

How the data were processed

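Total RNA from 6 EpiSC lines, 3 repeats each, was hybridized to Illumina mouse bead arrays. The deposited table of non-normalized values holds linear probe intensity, made by the authors with BeadStudio, per the submitters' processing notes. The authors' deposited series values are on a log2 scale, and the same notes name lumi; they served as an alternative. No versions are given. Intensities were taken to log2 without background correction, so differences of dim probes are understated, and quantile normalized. They were fitted with limma 3.58.1 (R 4.3.3; lmFit and eBayes, 6 line means, 12 residual df, two-sided), with Benjamini-Hochberg adjustment over 17908 probes and a threshold of 0.05. The fit was tested on simulated data. Figures used matplotlib 3.10.9 (Python 3.11.15).

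Probes were named from the platform annotation, updated through Entrez IDs with RefSeq GRCm38.p6. Of 45281 probes 34885 had 1 gene name, 18 several and 10378 none. A gene stands for its probe with the smallest p. Named genes were the 10 with the largest rise and the 10 with the largest fall among called genes above background on all 3 arrays of the brighter line whose arrays did not overlap, the 5 largest in each departing class, and called members of the gene lists. Members and lists were chosen with earlier results of these data known. The number of arrays limits the precision. Deviations of same-numbered NT.2 and NT.1 arrays correlated at 0.07, -0.41 and -0.14, so the numbers were not taken to pair the arrays. The alternatives were the authors' values, normexp, median scaling, 5 other probe filters, fewer lines, a trended and a 1.5-fold test, a replicate block and other outside lines. Each array of NT.2 and NT.1 was also left out in turn. FT.3 replicate 1, NT-LE replicate 2 and NT.1 replicate 2 were left out together, and no other FT or NT-LE array was left out singly.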

Additional observations from a re-analysis of the deposited data

How the results depend on the processing

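The 27 named probes kept their direction in all 549 fits run for them, and 548 fits passed. These probes were chosen for large differences on the same arrays, so this outcome was largely fixed by that choice. The called count (1408) was 129 against a 1.5-fold minimum (22 higher, 107 lower in NT.2). Without FT.3 replicate 1, NT-LE replicate 2 and NT.1 replicate 2 it was 1918, with 891 higher (585) and 1027 lower (823), and 485 probes were lower with median scaling, where the direction of small differences also turned. Probes at least 2-fold apart (148) numbered 78 with the authors' values, 233 with normexp at an offset of 16 and 70 among probes above background on all 18 arrays, a filter that leaves 14428 probes and removes genes off in a line by construction, so that 1 paternally expressed gene was then called lower (6). The midpoint against FT (2918) gave 7730 probes with median scaling, 1924 without FT.2, 1752 against NT-LE and 936 against FT.3 alone. NT.2 then departed at 324 against NT-LE and 351 against FT.3 (556), and NT.1 at 200 and 66 (117). The chromosome 11 median (-0.09) was -0.0246 with median scaling and -0.0346 without a filter. Leaving out 1 array of NT.2 or NT.1 gave 852 to 1147 called, 323 to 466 higher, 529 to 713 lower, 141 to 160 at least 2-fold, 2158 to 2930 for the midpoint, 389 to 466 and 78 to 131 with NT.2 and NT.1 departing, and -0.13 to -0.07 for chromosome 11. With a replicate block 1300 probes were called (528 higher, 772 lower in NT.2), 148 at least 2-fold, and the departing counts were 515 and 111, with 2742 for the midpoint. The 3 left-out arrays, FT.3 alone and the analyses of chromosome 11 were chosen after the data were seen. Why these counts changed was otherwise not tested. Signal over background limits dim probes, whose differences are understated.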

Other observations

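A large difference was on a probe with no gene listed. ILMN_2476405 was at 7.12, 7.12 and 7.29 in NT.2 and at 15.12, 15.19 and 15.24 in NT.1, a difference of -8.01 (SE 0.09, limma adjusted p = 2e-19). It was above background on 1 of 3 NT.2 arrays. It was at 7.06, 7.11 and 7.11 in NT-LE and averaged 7.15 in the FT lines, so NT.1 was the only one of the 6 lines in which it was high. ILMN_1214408, also without a gene listed, was at 10.29, 10.49 and 10.47 in NT.2 and at 15.001, 14.97 and 14.98 in NT.1 (difference -4.57, SE 0.06, limma adjusted p = 2.32e-18), with an FT mean of 15.003. Both values were singled out after they were seen.

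Among the 1408 called probes, 117 probes of 87 genes were above background on 0 of 3 NT.2 arrays and 3 of 3 NT.1 arrays. Probes with this pattern that were not called are not in the count, and no further test was made. Of these, 71 were above background on all 9 FT arrays, and NT-LE was off at 25 and on at 41 of the 71. The reverse held for 35 called probes of 32 genes, of which 6 probes were on in all 9 FT arrays. Among the 125 probes called and at least 2-fold lower in NT.2, the NT-LE mean was nearer to NT.2 at 49, and among the 23 higher at 18. The share over all tested probes was not counted. Some genes, such as Snurf and Mest, hold several of the lower probes.

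Genes at least 2-fold lower in NT.2 in part stood near each other, as a description with no test. Of 90 such genes, 27 lay in 12 groups whose members were at most 10 tested genes apart, in the gene order of GRCm38.p6. The 90 were 0.897% of the 10032 tested genes in that order. How many of them would lie so near each other by placement alone was not tested. Besides the Snurf cluster, chromosome 6 held Mrpl35 (-1.46) and Ptcd3 (-1.50), which act in mitochondrial translation, beside Polr1a (-2.54). Chromosome 2 held Kif3b (-1.07), a kinesin motor, Asxl1 (-1.14), a Polycomb-related regulator, and Cdk5rap1 (-2.52), a tRNA-modifying enzyme, and, apart from these, Slpi with the related Wfdc2 (-1.004). The values of Kif3b and Asxl1 rest on 1 probe each, since another Kif3b probe differed by -0.19 and the other Asxl1 probes by 0.08 and -0.019, none of them past the threshold. Krt8 and Krt18 were neighbours on chromosome 15, and Cldn4 and Cldn3 on chromosome 5, as family members often are. The 1 group of higher genes was Cdkn1c with Tnfrsf22 (1.02 on 1 probe) on chromosome 7.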
